A study of Drosophila melanogaster with 2 samples.

Results

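Hi-C, which counts how often DNA segments lie close enough to be ligated to each other, was carried out on whole F1 hybrid embryos of Drosophila melanogaster aged 2 to 4 h. The mothers were of line DGRP-057 and the fathers of line DGRP-439, both inbred lines of the Drosophila Genetic Reference Panel, and 2 biological replicates of this 1 condition were deposited. The reads had been placed on an F1 diploid version of the dm3 genome, in which the maternal and the paternal homolog of each sequence stand apart. Replicate 1 held 24390496 read pairs and replicate 2 held 24659056. The sequences described here are all those outside the large arms 2L, 2R, 3L, 3R and X and outside chromosome 4. They were taken from the list of sequences at the head of each table of pairs and made up 18 of 30 sequences, or 4844 of 16890 bins of 20 kb. Together they spanned 96.7 Mb over both homologs, which was 28.7% of the assembly.

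In dm3, 2LHet, 2RHet, 3LHet, 3RHet, XHet and YHet are scaffolds of heterochromatin that were assigned to a chromosome but not joined to its assembled arm. U and Uextra string together scaffolds that were not placed on any chromosome, so that distances and neighbours within them need not exist in the nucleus, and M is the mitochondrial genome. Heterochromatin around the centromeres is rich in satellites and transposon remnants, stays compact through interphase, and tends to gather in a chromocentre. In nuclei of early fly embryos, centromeres lie toward one pole and telomeres toward the other, the Rabl arrangement. Read ends in repeats can seldom be placed uniquely, and SNVs between the lines are needed to tell the homologs apart, so coverage of such sequence is partial from the start.

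For each homolog, 2LHet was 0.369 Mb long, 2RHet 3.29 Mb, 3LHet 2.56 Mb, 3RHet 2.52 Mb, U 10.0 Mb, Uextra 29.0 Mb, XHet 0.204 Mb and YHet 0.347 Mb, whereas M had 19517 bp. The 18 sequences received 199322 read ends in replicate 1 and 198488 in replicate 2, or 0.406% ± 0.0043 of all ends (mean ± SD, n = 2, as for each mean below). This came to 2.06 ± 0.0061 ends per kb, against 205 ± 1.60 on the large arms and 73.9 ± 0.60 in the 2 Mb at the centromere ends of the large arms. Each of these differences was far larger than the spread between the replicates. With 1 condition there was no test to run, and with 2 replicates the SD itself was known only roughly.

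**Figure D1:**
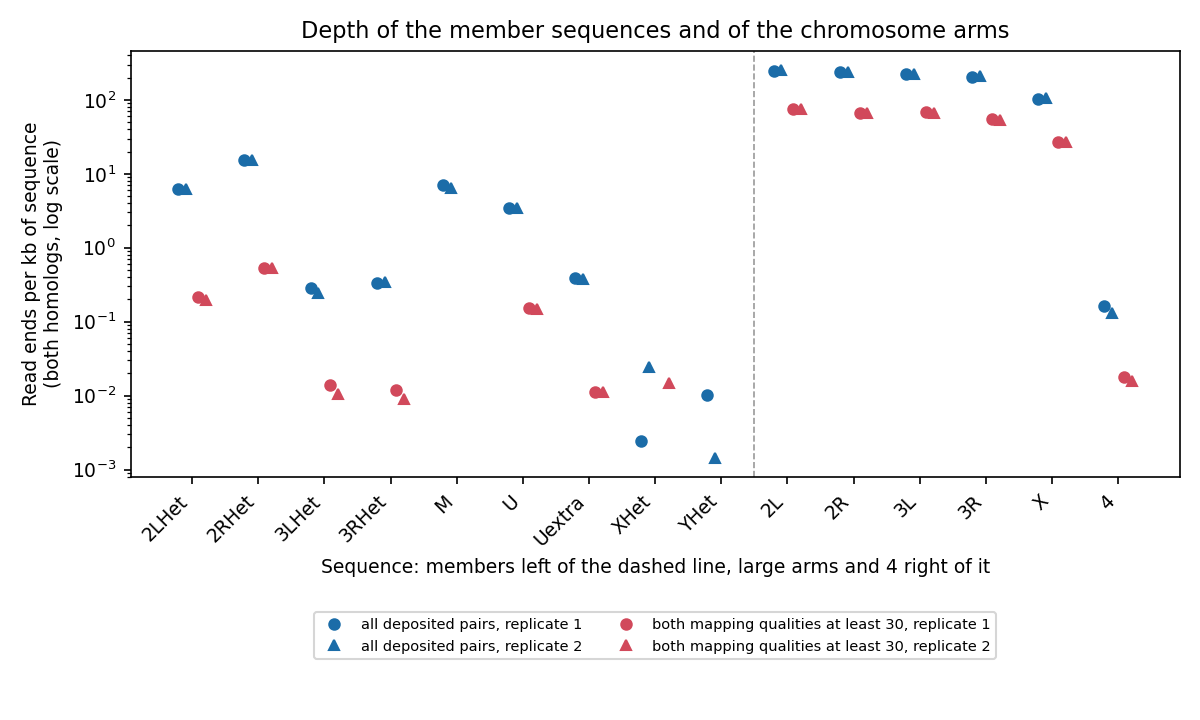
Read ends per kb of sequence (log axis) for the 9 sequences outside the large arms, left of the dashed line, and for the large arms and chromosome 4, right of it. Circles are replicate 1 and triangles replicate 2, blue for all deposited pairs and red for those in which each end had a mapping quality of 30 or more, and values of 0 are not drawn. 2RHet at 15.2 ends per kb was the deepest of the 9 sequences, below each of the large arms.

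Depth differed widely among the sequences and little between the replicates. 2RHet held 99779 ends in replicate 1 and 100331 in replicate 2 (15.2 ± 0.059 per kb), U held 69084 and 68252 (3.42 ± 0.029), and Uextra held 22416 and 22058 (0.383 ± 0.0044). 2LHet held 4615 and 4634 ends (6.27 ± 0.018 per kb), 3RHet 1672 and 1708 (0.336 ± 0.0051), and 3LHet 1472 and 1245 (0.266 ± 0.031). M held 276 and 249 ends. XHet held 1 and 10 ends and YHet 7 and 1, so that nothing beyond their counts is given for either. The scaffolds of chromosome 2 were thus deeper than those of chromosome 3, and so were the 2 Mb at the centromere ends of the arms, with 133 ends per kb on 2L and 114 on 2R but 0.507 on 3L and 8.78 on 3R.

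Within each sequence the ends fell on part of the bins. In 2RHet 127 of 165 bins held ends in both replicates, and the deepest bin, 1680001 to 1700000, held 2194 and 2240 ends, only 2.22% of the total. In 2LHet 15 of 19 bins held ends, led by 280001 to 300000 with 661 and 747. U had ends in 307 of 503 bins, and 11.2% of them lay in the single bin from 4020001 to 4040000, with 7502 and 7844 ends. Uextra had ends in 880 of 1451 bins, of which 463 were covered in both replicates, and its bin from 3200001 to 3220000 held 2334 and 2416 ends. In 3RHet the bin from 1160001 to 1180000 held 493 and 554 ends, or 31.0% of all, and in 3LHet 260001 to 280000 held 271 and 232, or 18.5%. The 5 fullest bins held 59.6% of the ends of 3RHet, 58.8% of those of 2LHet and 50.8% of those of 3LHet, against 10.1% of those of 2RHet. In XHet all 11 ends lay in 180001 to 200000, and the fullest bin of YHet, 1 to 20000, held 2 ends in replicate 1 and 0 in replicate 2. Ends per bin ranked alike in the replicates in 2RHet (Spearman's rho = 0.995 over 127 bins) and U (0.980 over 307), and less so in Uextra (0.586 over 880). These are descriptions over bins of the same libraries, in which most bins of Uextra held few ends.

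The aligner's mapping quality, a score of how surely an end is placed, was lower than on the large arms. Its median was 21 in both replicates, against 32 and 31 on the large arms. Of the ends, 13.0% ± 0.15 reached 30, against 50.9% ± 0.24. At the 2 Mb centromere ends of the large arms the median was also 21, and 37.4% ± 0.11 of ends reached 30. That share was 12.4% ± 0.49 on 3L, 23.2% ± 0.56 on 3R, 29.9% on 2L, 33.1% on 2R and 51.7% on X. The low median was thus not particular to the 18 sequences, though the centromere end of X had medians of 34 and 32. The share of ends reaching 30 was 14.1% in U, 12.9% in 2RHet, 11.6% in 2LHet, 11.4% in 3LHet, 10.9% in Uextra, 5.45% in 3RHet and 0.18% in M. With a quality of at least 30 required at both ends of a pair, 7511 and 7300 ends were left on the 18 sequences, or 0.0537% of the ends of such pairs. 2RHet then held 3535 and 3457 ends, U 3039 and 2952, Uextra 646 and 643, 2LHet 160 and 144, 3LHet 71 and 53, and 3RHet 60 and 45, while M and YHet held 0.

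The parents were nearly balanced over whole sequences, whereas some single bins were one-sided. The maternal homolog received 49.4% ± 0.017 of ends on the 18 sequences, against 50.9% ± 0.25 on chromosomes 2 and 3. The maternal share was 48.4% ± 0.22 in 2RHet, 50.1% ± 0.27 in U, 51.2% ± 0.24 in Uextra, 52.6% ± 1.15 in 2LHet, 53.3% ± 1.20 in 3LHet and 56.8% ± 1.28 in 3RHet. Among bins with at least 200 ends, the maternal share ran from 0.361% to 74.6% in 115 bins of 2RHet, from 0.904% to 97.5% in 101 bins of U and from 0.196% to 95.6% in 50 bins of Uextra. It lay outside 40 to 60% in 20 of those bins of 2RHet, in 35 of U and in 36 of Uextra. The same count was not made for bins of the large arms, so it cannot be called particular to these sequences. On M, 276 of 276 ends in replicate 1 and 246 of 249 in replicate 2 lay on the sequence of the paternal line, although mitochondria of the fly are inherited from the mother. The cause of this was not tested, and hardly any end on M reached a mapping quality of 30.

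Pairs were sorted into cis (1 sequence, 1 homolog), trans-homolog (the maternal and the paternal copy of 1 sequence) and trans-heterolog (sequences of different names). Trans-heterolog pairs took 18.3% ± 1.75 of the ends on the 18 sequences, against 3.64% ± 0.50 on the large arms. The share was 15.4% ± 1.55 in 2RHet, 18.1% ± 1.80 in U, 25.8% ± 2.08 in Uextra, 27.2% ± 2.75 in 2LHet, 28.3% ± 5.06 in 3LHet and 58.7% ± 3.55 in 3RHet, in each case above the large arms by more than the spread. Pairs of 2LHet or 2RHet with 2L and 2R join pieces assigned to 1 chromosome and count as trans-heterolog here. Among pairs with a quality of at least 30 at both ends the shares were 19.5% ± 1.64 and, on the large arms, 2.78% ± 0.44. 3RHet then stood at only 23.9% ± 0.79 (14 and 11 ends) and 3LHet at 36.9% ± 1.54 (27 and 19 ends).

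To ask where these trans-heterolog pairs went, the counts were set against an expectation in which each region took part in pairs in proportion to 1 weight, fitted so that each region's trans-heterolog total was met and with pairs inside an arm left out. The regions were the 9 sequences, chromosome 4, and the centromere end (2 Mb), the middle and the telomere end (2 Mb) of each large arm, with homologs combined. Contacts of the sequences with the centromere ends exceeded the expectation 5.33 ± 0.35 times (6117 and 7630 pairs). Those with the middles reached 0.625 ± 0.0030 times and those with the telomere ends 0.554 ± 0.0083 times (1797 and 2125 pairs), so that the centromere ends stood 9.62 ± 0.48 times above the telomere ends. The centromere ends of different large arms, 2L with 2R included, met each other at 3.43 ± 0.031 times the expectation. With a mapping quality of at least 30 the centromere ends were at 7.00 ± 0.73 (190 and 244 pairs) and the telomere ends at 0.862 ± 0.0016 (114 and 128 pairs).

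**Figure D2:**
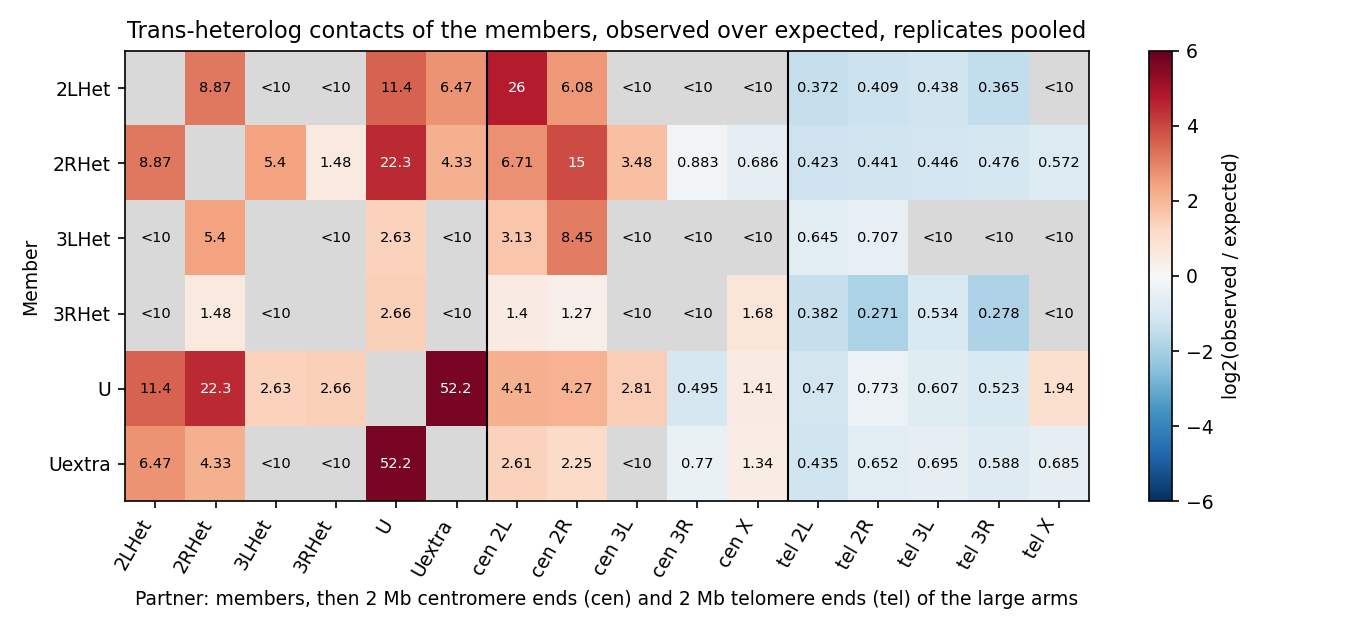
Trans-heterolog pairs of 6 sequences (rows) with each other and with the 2 Mb centromere ends (cen) and telomere ends (tel) of the large arms (columns), as observed over expected with the replicates pooled. The number in each cell is that ratio and the colour its log2, and grey cells hold fewer than 10 pairs or lie on the diagonal. Among the arm ends, 2LHet and 2RHet stood highest at the centromere end of the arm in their own name.

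The scaffolds of chromosome 2 met the arm they are named after most often. 2LHet made 381 and 443 pairs with the centromere end of 2L, 26.0 ± 0.51 times the expectation, and 82 and 106 with that of 2R (6.05 ± 0.57 times). 2RHet made 2587 and 3152 pairs with the centromere end of 2R, 15.0 ± 0.78 times the expectation, and 1142 and 1482 with that of 2L (6.68 ± 0.65 times). The centromere end of X, by contrast, met 2LHet at 0.356 ± 0.052 times (4 and 4 pairs) and 2RHet at 0.686 times (86 and 106 pairs). Over the scaffolds named after a large arm (not YHet), centromere ends of the own chromosome stood 10.5 ± 0.60 times above those of other chromosomes. This ratio was 16.1 ± 0.54 over 0.431 ± 0.11 for 2LHet and 10.8 ± 0.71 over 0.754 ± 0.049 for 2RHet. The joint value rested almost wholly on 2LHet and 2RHet, with 1012 and 8363 own pairs in the pooled replicates. 3LHet made only 3 with the centromere end of 3L and 2 with that of 3R. Of the 22 bins of 2RHet with at least 100 contacts with the 2 Mb centromere ends, all had most of them on chromosome 2, with shares from 93.3% to 99.7%, and so did the 4 such bins of 2LHet. By the fitted weights alone 70.7% would lie there, so a majority on chromosome 2 is not in itself an excess.

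**Figure D3:**
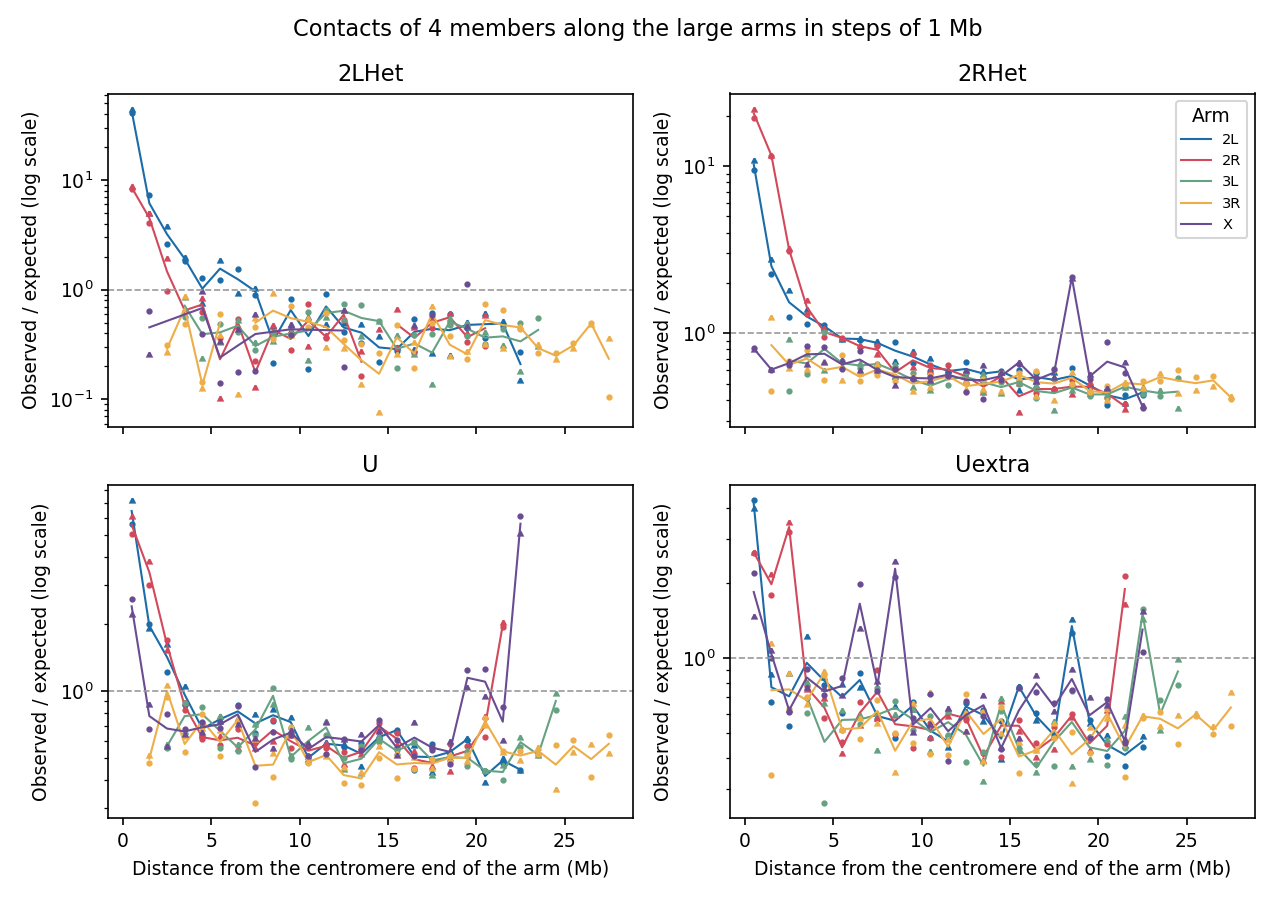
Observed over expected pairs (log axis) of 2LHet, 2RHet, U and Uextra with each large arm in steps of 1 Mb, against the distance of the step from the centromere end of that arm. Circles are replicate 1, triangles replicate 2 and lines their mean, and steps with fewer than 5 expected pairs in a replicate are left out. Values on 2L and 2R were highest in the first few Mb, and those of U were also high at the far end of X.

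Along the arms the excess was short. In the first Mb of 2R, 2RHet reached 20.6 ± 1.92 times the expectation, in the second Mb 11.5 ± 0.13, in the third 3.17 ± 0.079 and in the fourth 1.44 ± 0.19. On 2L it was 10.2 ± 1.00 times in the first Mb and already 2.52 ± 0.37 in the second. 2LHet likewise reached 42.8 ± 2.87 times in the first Mb of 2L and 6.15 ± 1.62 in the second. On X, 2RHet stayed below the expectation in the first Mb (0.810 ± 0.011).

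The partners of 2RHet also changed along 2RHet itself. Its first 0.5 Mb placed 7.66% ± 0.59 of its trans-heterolog ends in the centromere end of 2R and 9.65% ± 0.088 in that of 2L. The stretch from 1.5 to 2 Mb placed 19.8% ± 0.67 in 2R and 9.25% ± 1.30 in 2L. The last stretch, from 3 Mb to its end, placed 46.3% ± 0.46 in 2R (847 of 1842 and 1037 of 2224 ends) and only 3.85% ± 0.22 in 2L. The share on 2R was thus highest at the end of 2RHet with the highest coordinates, and the difference between the first and the last stretch exceeded the spread many times over. It did not grow evenly, with 18.8% ± 1.12 between 2 and 2.5 Mb and 15.9% ± 1.48 between 2.5 and 3 Mb.

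The scaffolds of chromosome 3 could be judged less well, since the expected counts at the centromere ends of 3L and 3R were small. 3LHet made 1 and 2 pairs with the centromere end of 3L, 20.9 ± 7.69 times the expectation, which was only 0.141 pairs in the pooled replicates. With that of 3R it made 1 and 1 pairs, 2.33 ± 0.068 times. Counts this small do not rank the arms. With the centromere end of 2R, 3LHet made 36 and 43 pairs, 8.44 ± 0.68 times the expectation. Part of these lay in few bins. At a quality of at least 30, the bin of 3LHet from 1400001 to 1420000 made 6 and 8 pairs with 2R from 740001 to 760000 and 6 and 4 with the next bin, 760001 to 780000. With each pair of bins counted at most once, the centromere end of 2R met 3LHet at 3.49 ± 1.42 times (10 and 19 pairs), and all centromere ends together did so at 3.00 ± 0.19 times, against 4.56 ± 0.061 without that limit. 3RHet met the centromere ends at 1.46 ± 0.054 times (47 and 55 pairs), with 0 pairs on 3L and 2 and 4 on 3R. With each pair of bins counted once, those on 3R stood at 3.75 ± 1.48 times. 3RHet met the middle of X more often than all centromere ends together, at 2.22 ± 0.43 times (195 and 174 pairs). Of these, 110 and 99 joined its bin from 1740001 to 1760000 to the bin of X from 19320001 to 19340000. None of those 209 pairs had a quality of 30 at both ends, and with each pair of bins counted once the middle of X stood at 1.26 ± 0.26 times.

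The unplaced sequences also met the centromere ends more often than expected, though by less. U met those of 2L at 4.39 ± 0.54 times (598 and 790 pairs), of 2R at 4.24 ± 0.65 (551 and 761) and of X at 1.41 ± 0.018 (145 and 172). Uextra met them at 2.61 ± 0.087, 2.24 ± 0.17 and 1.35 ± 0.17 times. Unlike the scaffolds of chromosome 2, U was also above the expectation at the telomere end of X, at 1.96 ± 0.36 times (170 and 157 pairs) or 1.50 ± 0.33 times with each pair of bins counted once. The last step of X, beyond 22 Mb from the centromere end, stood at 5.65 ± 0.70 times (112 and 110 pairs), and the last step of 2R, beyond 21 Mb, at 1.99 ± 0.075 times (58 and 74 pairs). At a quality of at least 30, the strongest single pair of bins between U and a large arm joined 4020001 to 4040000 of U, its deepest bin, with 21120001 to 21140000 of 2R, in 3 and 5 pairs. That bin of U held 1888 of the 5991 ends of U at that quality in the pooled replicates. How far the values of U at that quality rest on this bin was not tested. The telomere ends of all large arms met U at 0.687 ± 0.0052 times in all pairs but at 1.26 ± 0.040 times at that quality (58 and 70 pairs), so that U stood above the expectation there. This held for the telomere end of 2R, at 2.14 ± 0.080 times (21 and 26 pairs) against 0.772 ± 0.035 in all pairs, and for that of X, at 4.02 ± 0.20 times (7 and 9 pairs). The centromere ends met U at 4.52 ± 0.11 times at that quality (48 and 53 pairs), and 2RHet stayed at 0.578 ± 0.072 times with the telomere ends (36 and 36 pairs).

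A few bins of U and Uextra had enough contacts to be set against the chromosomes one by one. Of 347 bins with any contact with the 2 Mb centromere ends, 3 had at least 100, and all 3 had most of their contacts on chromosome 2 in both replicates. Uextra from 1680001 to 1700000 had 162 of 162 on chromosome 2, U from 3520001 to 3540000 had 120 of 121, and U from 1960001 to 1980000 had 133 of 137. By the weights alone, 70.7% would lie on chromosome 2, 25.5% on X and 3.74% on chromosome 3. With centromere ends of 5 Mb, chosen after seeing the data, 8 bins qualified, of which 7 had more contacts on chromosome 2 than on any other and 1 had more on X, with 64 of 161 there, and Uextra from 1920001 to 1940000 stood out among those added, with 210 of 215 on chromosome 2. By the weights, 55.4% would then lie on chromosome 2, 26.7% on chromosome 3 and 17.9% on X.

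With U and Uextra included, contacts among the sequences exceeded the expectation by more than those with the centromere ends, though in fewer pairs. Different sequences among the 9 made 3911 and 4172 pairs with each other, 20.4 ± 0.15 times the expectation, or 15.9 ± 0.12 with each pair of bins counted once. Without U and Uextra the ratio was 5.22 ± 0.90, below the 7.64 ± 0.38 of the contacts with centromere ends in that setting. 2LHet and 2RHet, the scaffolds of the 2 arms of chromosome 2, met at 8.82 ± 1.41 times (64 and 88 pairs). Scaffolds named after different chromosomes gave few pairs, with 9 and 19 between 2RHet and 3LHet (5.37 ± 2.61 times) and 10 and 10 between 2RHet and 3RHet (1.48 ± 0.054 times). At a quality of at least 30 only 53 and 50 pairs were left between different sequences, at 37.1 ± 0.32 times the expectation.

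U met 2RHet at 22.3 ± 0.045 times (1836 and 1969 pairs), with 21 and 29 of them left at a quality of at least 30. These contacts were spread over many bins. 135 bins of U met 2RHet, and the 25 with at least 50 pairs held 67.2% of the pairs. The bin of U from 1960001 to 1980000 made 165 and 160 pairs with 79 bins of 2RHet, and the bin from 3680001 to 3700000 made 159 and 156 with 54 bins. U from 8260001 to 8280000 was more local, since 54 of its 118 pairs lay in 1 bin of 2RHet, from 1920001 to 1940000.

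U and Uextra met at 52.2 ± 0.27 times (1619 and 1669 pairs), but here single pairs of bins carried much of the count. U from 9140001 to 9160000 alone made 397 and 389 pairs with Uextra from 18100001 to 18120000, and only 2 of these 786 had a quality of 30 at both ends. With each pair of bins counted once the ratio was 20.7 ± 1.40. M and Uextra made 90 and 104 pairs, all of them between 17518 and 17792 of M and between 8792196 and 8792485 of Uextra. In replicate 1, 85 of them joined paternal M to maternal Uextra, and in replicate 2 101 did. The highest quality of any of these pairs was 21 in replicate 1 and 20 in replicate 2. Over all trans-heterolog pairs of the 18 sequences, the 10 fullest pairs of bins held 3.91% ± 0.35, with 2.39% ± 0.18 in 2RHet, 8.48% ± 0.63 in U, 19.6% ± 0.78 in Uextra, 21.1% ± 3.37 in 3RHet and 87.7% ± 0.087 in M.

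The strongest single contact with a large arm at high quality was not near a centromere. 2RHet from 2400001 to 2420000 and X from 4220001 to 4240000 made 18 and 25 pairs at a quality of at least 30 and 88 and 100 in all. 3RHet from 1820001 to 1840000 made 7 and 3 such pairs with 2L from 20020001 to 20040000. Together with the 2 pairs of bins of 3LHet on 2R and the one of U on 2R given above, these were the 5 fullest at that quality.

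Since both parents can be told apart, each trans-heterolog pair also shows whether its ends came from the same parent. Contacts within 1 DNA molecule join the same parent, whereas ends that meet without regard to parent would give about 50%. Between 2RHet and the centromere end of 2R, 2052 pairs joined the same parent and 535 different parents in replicate 1, and 2528 and 624 did in replicate 2. The same-parent share was 79.8% ± 0.62. For 2LHet and the centromere end of 2L it was 79.8% ± 0.42 (305 against 76 pairs and 352 against 91). Across the centromere it was lower, at 66.8% ± 1.07 between 2RHet and 2L, 61.6% ± 0.91 between 2LHet and 2R and 67.1% ± 0.10 between 2LHet and 2RHet, and the centromere ends of 2L and 2R gave 63.6% ± 1.62 with each other. On chromosome 3 as a whole, 2RHet gave 51.8% ± 0.59, and on chromosome 2 outside the centromere ends 54.4% ± 1.48.

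**Figure D4:**
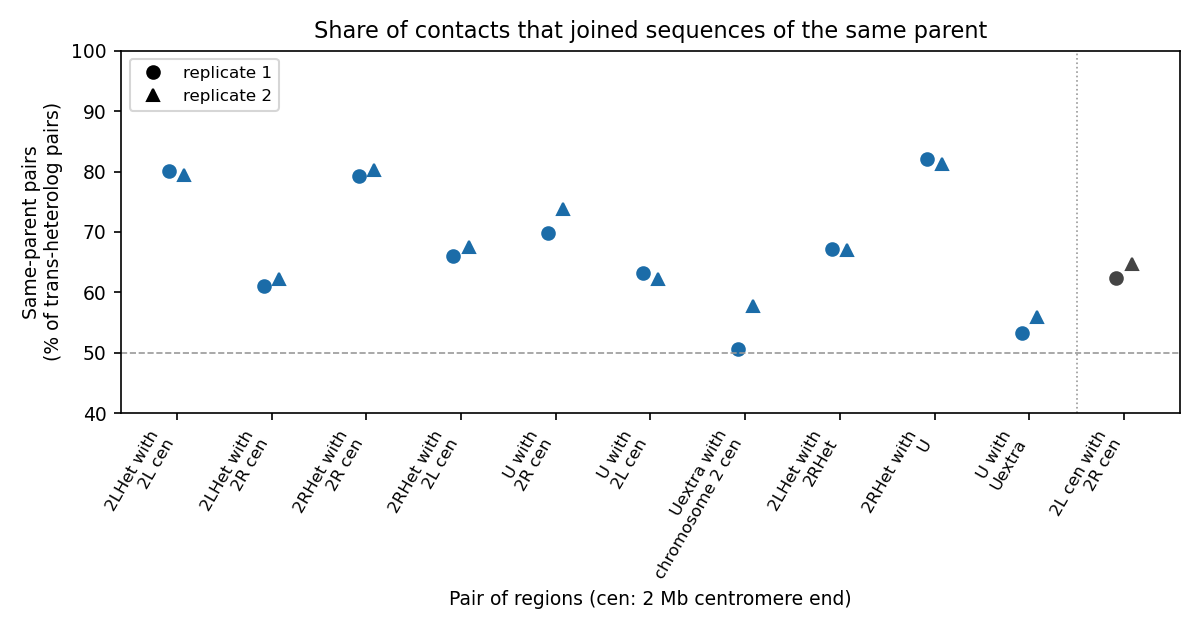
Same-parent pairs as a percent of trans-heterolog pairs between the regions named on the x axis, with circles for replicate 1 and triangles for replicate 2. Points left of the dotted line involve the scaffolds and unplaced sequences, the point right of it joins the centromere ends of 2L and 2R, and the dashed line marks 50%. 2LHet with 2L, 2RHet with 2R and 2RHet with U lay near 80%.

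Part of U followed the same pattern. Its same-parent share was 71.8% ± 2.72 with the centromere end of 2R, 62.7% ± 0.75 with that of 2L and 50.3% ± 0.52 with chromosome 3. With 2RHet it was 81.6% ± 0.58 (1506 against 330 pairs and 1599 against 370), as high as for 2RHet with its own arm. In the 25 bins of U with at least 50 pairs with 2RHet it ranged from 70.2% to 95.0%, with a median of 86.3%, so that no such bin fell to 50%. Uextra gave 54.1% ± 5.01 with the centromere ends of chromosome 2 and 54.6% ± 1.88 with U, and its bins differed. Its bin from 1920001 to 1940000 had 83.8% same-parent pairs with chromosome 2 (5 Mb ends), and its bin from 1680001 to 1700000 had 29.0% (47 against 115 pairs). At a quality of at least 30, 2RHet with the centromere end of 2R gave 80.4% ± 6.54 (50 against 16 pairs and 85 against 15).

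Contacts between the homologs of a sequence were compared with those in cis at separations of at least 3 kb. The 18 sequences gave 2484 trans-homolog and 9101 cis pairs in replicate 1 and 2548 and 10090 in replicate 2, a ratio of 26.3% ± 1.44, against 9.71% ± 0.43 on the large arms. The sequences differed. 2RHet gave 9.83% ± 0.77 (493 over 5307 and 628 over 6055 pairs) and 2LHet 11.0% ± 0.43 (12 over 106 and 15 over 140), whereas U gave 24.1% ± 1.28 and Uextra 91.1% ± 3.83 (1442 over 1537 and 1357 over 1535). With all separations of at least 3 kb pooled, 2RHet thus differed from the large arms by less than the spread between replicates. U and Uextra lay far above the large arms, and without Uextra the ratio over all sequences was 13.8% ± 0.10. The near match of 2RHet did not hold at each separation. At 3 to 10 kb 2RHet stood at 5.48% ± 0.20 against 4.39% ± 0.43 on the large arms. At 100 to 1000 kb it stood at 14.2% ± 1.54 against 9.36% ± 0.24. Beyond 1 Mb it was lower, at 19.4% ± 0.93 against 25.8% ± 1.16. In 3LHet and 3RHet no more than 4 cis pairs a replicate were left at this separation.

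Pairs that face inward at 300 to 600 bp are mostly unligated fragments, and a trans-homolog pair among them was counted as an end given to the wrong homolog. Such pairs reached 4.92% ± 0.0067 of the cis pairs on the 18 sequences, against 0.237% ± 0.0011 on chromosomes 2 and 3. In the 2 Mb at the centromere ends of the large arms such pairs reached 1.68% ± 0.026, close to 2RHet. They reached 0.801% ± 0.23 in 2LHet, 1.75% ± 0.021 in 2RHet (277 over 15962 and 286 over 16208), 8.96% ± 0.13 in U and 39.0% ± 2.67 in Uextra. With these rates applied to the cis pairs, wrongly assigned ends would account for 17.8% ± 1.18 of the trans-homolog pairs of 2RHet at 3 kb and more, 37.3% ± 2.54 of those of U and 42.8% ± 1.13 of those of Uextra, against 2.44% on chromosomes 2 and 3. At the centromere ends of the large arms the same estimate was 16.7% ± 0.64, close to that of 2RHet. These estimates take 1 rate for a whole sequence or for a whole group of regions.

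These short trans-homolog pairs were not spread evenly. In 2RHet 80 of 92 bins with at least 100 inward cis pairs were below 1%, with a median of 0.0725%, and the 5 fullest bins held 67.5% of all such pairs. The bin from 3220001 to 3240000 alone held 53 and 63. In U 34 of 51 bins were below 1%, with a median of 0.219%, but 1 bin reached 171.6%, that is, more trans-homolog than cis pairs, and the 5 fullest bins held 49.6%. In 2R, for comparison, 993 of 1033 bins were below 1%, with a median of 0.133%, and the 5 fullest bins held 7.21%. In Uextra only 2 bins had at least 100 inward cis pairs, and 5 bins held 96.1% of the short trans-homolog pairs. Its fullest bin, 9260001 to 9280000, held 79 of them over 1 cis pair in the pooled replicates. Without the 5 fullest bins of each, the share was 5.82% ± 0.18 in U and 2.35% ± 0.26 in Uextra. In 2RHet it was then 0.653% in replicate 1 and 0.546% in replicate 2. The estimates above for 2RHet, U and Uextra thus rest to a large part on few bins. In some of those of U and Uextra, trans-homolog pairs outnumbered cis pairs. Pairs with both ends in the bins below 1% were also counted, a choice made after seeing the data. Their trans-homolog ratio at 3 kb and more was 7.93% ± 0.17 in 2RHet (270 over 3456 and 310 over 3851) and 4.46% ± 0.83 in U (36 over 713 and 33 over 852). In 993 bins of 2R chosen in the same way it was 9.15% ± 0.41. In the 4 such bins of 2LHet it was 24.8% ± 1.41 (5 over 21 and 8 over 31), above its value of 11.0% over all bins but with few pairs behind it. The ratio for U thus depended on which of its bins were used. These bins were kept for a low trans-homolog share at short range, and distances within U need not exist. The 4.46% of U can therefore not be ranked against the 9.15% of 2R.

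**Figure D5:**
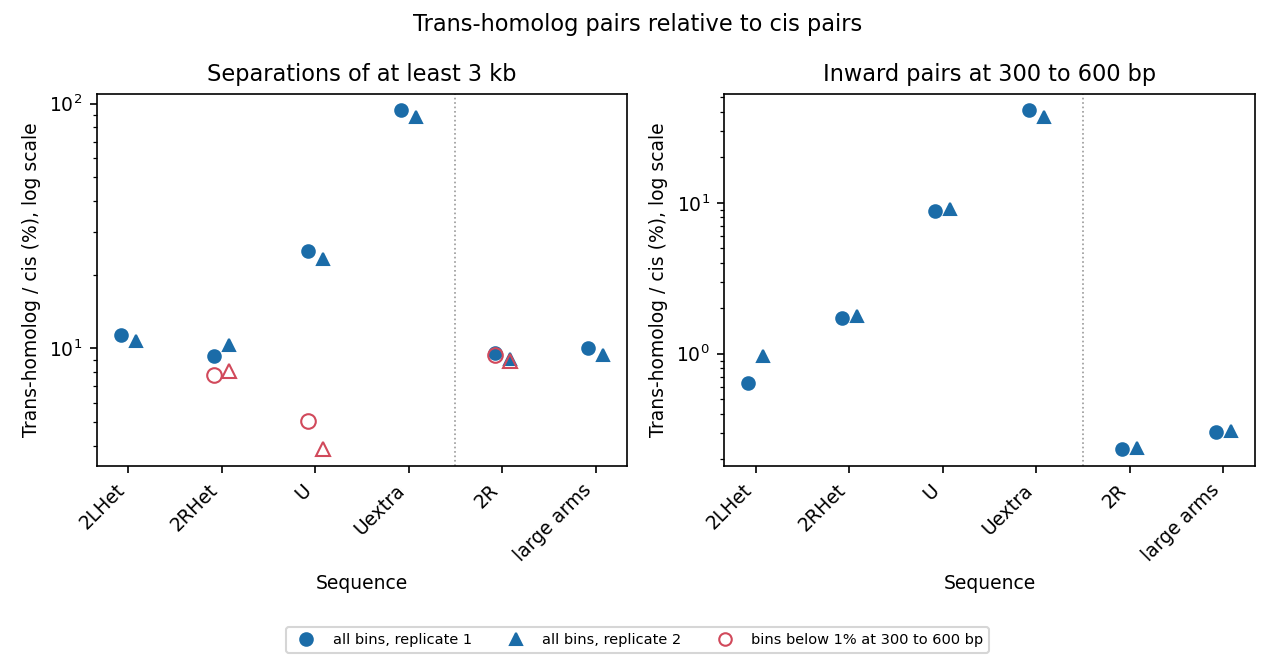
Trans-homolog pairs as a percent of cis pairs (log axes) at separations of at least 3 kb (left panel) and among inward pairs at 300 to 600 bp (right panel), with scaffolds and unplaced sequences left of the dotted line and 2R and the large arms right of it. Circles are replicate 1, triangles replicate 2, and open symbols keep only bins below 1% at 300 to 600 bp. U stood at 4.46% in those bins, against 24.1% in all bins.

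In 2RHet the trans-homolog ratio was higher at longer separations, and likewise in 2R. It was 5.48% ± 0.20 at 3 to 10 kb, 7.10% ± 0.72 at 10 to 100 kb, 14.2% ± 1.54 at 100 to 1000 kb and 19.4% ± 0.93 beyond 1 Mb, against 4.28% ± 0.44, 6.19% ± 0.40, 9.40% ± 0.29 and 26.2% ± 1.03 in 2R. In the 2 Mb at the centromere end of 2R it was 2.71%, 5.30% ± 0.083, 12.8% ± 0.89 and 15.5% ± 2.26. Uextra had no such course. It held 0 cis pairs between 600 and 3000 bp in either replicate, and most of its distant pairs, 1321 and 1343 in cis and 1261 and 1196 trans-homolog, lay more than 1 Mb apart in the order in which the scaffolds are strung. The 10 fullest pairs of bins at 100 kb and more held 44.4% ± 0.43 of its pairs, 34.4% ± 1.79 of those of U and 5.67% ± 0.14 of those of 2RHet, against 0.338% ± 0.020 in 2R.

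At a quality of at least 30 the numbers within sequences were small. 2RHet kept 2 trans-homolog and 68 cis pairs at 3 kb and more in replicate 1 and 3 and 87 in replicate 2 (3.19% ± 0.36), U kept 10 and 30, and 10 and 42 (28.6% ± 6.73), and Uextra kept 15 and 18, and 13 and 19 (75.9% ± 10.5). 2RHet was then below its value from all pairs, with 5 trans-homolog pairs behind it, while U and Uextra were above 2RHet in both replicates. Short inward trans-homolog pairs at that quality were 1 over 311 and 1 over 266 in 2RHet and 21 over 404 and 18 over 403 in U. The bin of U from 4020001 to 4040000 held 1888 of the 5991 ends of U at that quality, so these values need not describe U as a whole.

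XHet and YHet gave single pairs only. In replicate 1 XHet made 1 pair with maternal X, and in replicate 2 it made 5 pairs within its maternal sequence. YHet made 2 pairs with 2R, 1 with 3L and 2 within itself in replicate 1 and 1 with 3R in replicate 2, and none with X, so that its contacts with the maternal and the paternal X could not be compared.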

How the data were processed

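Hi-C pairs of 2 biological replicates of 1 group were analysed, each replicate on its own. The authors aligned the reads to a diploid F1 genome built on dm3 with BWA 0.7.15 (per the labels), kept uniquely mapped ends and removed PCR duplicates. The deposited tables give the position and strand of both ends of each pair, without normalization, and the deposited mapping quality of an end is the aligner's score, never below 1 here. Such mapping keeps only the part of repetitive sequence that is unique and differs between the lines, which lowers and biases depth in heterochromatin. Counting error alone sets the precision of small counts.

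Sequences were chosen by name and counted in bins of 20 kb. Centromere ends lay at the highest coordinates of 2L, 3L and X and at the lowest of 2R and 3R, and were 2 Mb wide. Expected trans-heterolog counts were products of region weights fitted iteratively to each region's total, with pairs within an arm left out. Trans-homolog and cis pairs were compared from 3 kb on. Depth, pair kinds, contacts with 2 Mb arm ends and among the sequences, same-parent shares, trans-homolog ratios and misassignment were repeated with both qualities at least 30, and the profiles along arms, stretches of 2RHet and bin summaries were not. With 1 group, values are per replicate or mean ± SD, without tests. Simulated pairs drawn from the fitted weights were used to try the fit and the ratio of contacts with centromere ends. A short-pair ratio was also drawn at a known rate, and no other measure was tried on simulated data. Bins named are the deepest of each sequence, the 5 fullest pairs of bins with a large arm at a quality of at least 30, and the bins of U and Uextra (5 at most) with the highest share on 1 chromosome among those with at least 100 contacts. Those joining U with 2RHet, U with Uextra, 3RHet with X and M with Uextra, and those with the most misassigned pairs, were chosen after their values were seen, as were the stretches of 2RHet. The sequences and lists were chosen with earlier results of these data known. No base sequence is printed, as no dm3 genome was used here. Calculations ran in Python 3.11.15 with numpy 2.4.6, and figures were drawn with matplotlib 3.10.9.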

Additional observations from a re-analysis of the deposited data

How the results depend on the processing

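Leaving out either replicate gave 0.402 to 0.409% for the share of read ends on the 18 sequences, 49.4 to 49.4% for their maternal share, 17.1 to 19.5% for the trans-heterolog share, 20.3 to 20.5 for contacts among the sequences, 5.08 to 5.57 for those with centromere ends and 0.548 to 0.560 for those with telomere ends. It gave 9.28 to 9.96 for the ratio of the last 2, 10.1 to 10.9 for own over other centromere ends, 25.3 to 27.3% for trans-homolog over cis and 4.91 to 4.92% for misassignment.

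In these alternatives contacts among the sequences and with centromere ends stayed above the expectation and those with all telomere ends below it. The maternal share crossed 50%, and trans-homolog over cis crossed the 9.71% of the large arms in the bins with few short trans-homolog pairs and at a quality of 60. The cause of the shifts was not tested. With both mapping qualities at least 30, the share of ends was 0.0537%, the maternal share 52.2%, contacts among the sequences 37.1, with centromere ends 7.00 and with telomere ends 0.862, their ratio 8.12, own over other 6.28, trans-homolog over cis 20.4% and misassignment 2.92%. With each pair of bins counted once, contacts among the sequences were 15.9, with telomere ends 0.615, and the ratio 9.05. Without U and Uextra these 3 values were 5.22, 0.448 and 17.0, and contacts with centromere ends 7.64. With arm ends of 1 Mb, contacts with centromere ends were 7.91, with telomere ends 0.619, their ratio 12.8 and own over other 9.54. With arm ends of 5 Mb, centromere ends gave 2.27, the ratio 4.08 and own over other 5.62. Against an expectation from all read ends instead of trans-heterolog ends, contacts among the sequences were 348.6. Trans-homolog over cis was 24.0% from 1 kb on, 29.3% from 10 kb on and, in alternatives chosen after seeing the data, 13.8% without Uextra and 7.42% in bins below 1% short trans-homolog pairs. With both qualities at least 60 it was 0%, with 2 cis pairs in each replicate, and misassignment 16.9%.

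No paired analysis was possible because there was 1 group. The ratio of YHet contacts with maternal over paternal X could not be computed, as no such pair existed. Depth limits the heterochromatin of chromosome 3, X and Y, whose counts allow no statement beyond those given.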
